A study of Drosophila melanogaster with 12 samples.

Results

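The ecdysone response transcription factors are the receptor pair EcR and usp and regulators that are induced by the hormone or prepare cells to respond to it. The 9 genes listed for this family are EcR, usp, Eip75B, Eip74EF, Eip78C, Eip93F, br, Hr4 and ftz-f1. They were found by gene identifier among the probe sets that the platform annotation gives to a single gene, and 7 of the 9 were found in both value tables. Eip75B and Eip74EF are not analysed here, because no probe set of either table was named for them. The 7 genes had 15 of 18769 probe sets in the table of 8 arrays and 11 of 13966 in the table of 4 arrays. Total RNA from heads of flies expressing CLKGR was hybridised to 12 Affymetrix arrays. CLKGR joins the clock activator CLOCK (CLK) to the ligand-binding region of a glucocorticoid receptor, so that the steroid dexamethasone (DEX) can switch it on. Heads in both arms received cycloheximide (CHX), a blocker of protein synthesis, together with either vehicle or DEX. Of the 8 arrays, 1 is vehicle and 2 are DEX at Zeitgeber time 4 (ZT4, hours after lights on), 2 are vehicle and 2 are DEX at ZT16, and 1 is vehicle without a labelled time. The 4-array table holds 2 vehicle arrays and 2 arrays labelled DEX, with no labelled time. The promoter that drives CLKGR and the age and sex of the flies are not given in the labels.

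Ecdysone is the steroid hormone of insects, best known for timing moults and metamorphosis. Its active form binds the ecdysone receptor EcR, which pairs with Ultraspiracle (USP), the fly relative of the vertebrate retinoid X receptors. The pair turns on early genes that encode transcription factors, among them the zinc finger gene broad (br) and several nuclear receptor genes, and these in turn control later genes. Adult flies also make ecdysteroids, and in the head the pathway has been linked to memory, courtship, sleep and daily rhythms. Head RNA is a mixture of tissues, so fewer cells of a type and less RNA per cell cannot be told apart in any level below.

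A level here is the natural log of the deposited intensity, read as the log2 expression value, since the natural logs span the usual range of the GCRMA summary that the submitters used. Levels of different probe sets were not ranked against each other, because probe sets differ in brightness for equal amounts of RNA. A probe set entered the tests if its mean level lay above the 40th percentile of its table, 2.78 for the 8 arrays and 2.92 for the 4 arrays. This held for 10 of the 15 member probe sets and 6 genes in the larger table, and for 6 of the 11 and 4 genes in the smaller one. Vehicle ZT16 replicate 1 stood apart: the median of the probe sets below the filter was 2.63 on it and 2.54 to 2.57 on the other 7 arrays. It was the highest of the 8 arrays for 10 of the 15 member probe sets, for 49.7% of all probe sets below the filter and for 21.9% of those above it. As a check of the treatment label, the CLK target gene timeless (tim) had a mean of 9.63 on the DEX arrays and 6.21 on the vehicle arrays with a labelled time. In the 4-array table tim was at 4.01 on the arrays labelled DEX and at 7.82 on the vehicle arrays, the opposite direction. Directions drawn from the 4-array table therefore rest on labels that tim goes against.

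**Figure D1:**
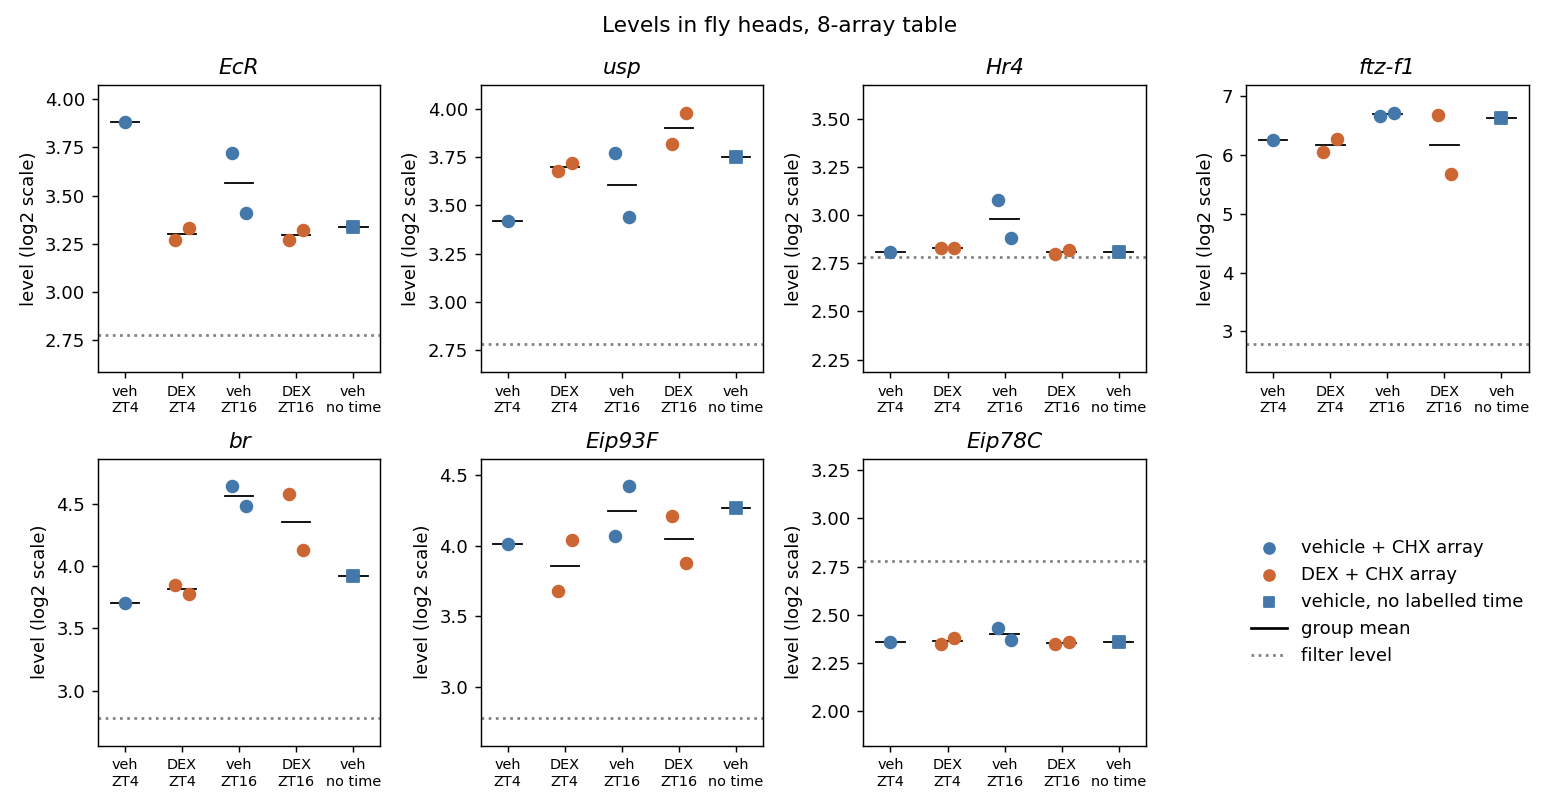
Level of each gene (log2 scale, vertical axis) on every array of the 8-array table, by treatment and time, for the probe set with the highest mean level; points are arrays, black bars group means, the dotted line the filter level of 2.78. EcR sits at 3.27 to 3.33 on the 4 DEX arrays, br lies higher on all 4 ZT16 arrays than on the 3 ZT4 arrays, and Eip78C stays below the filter on every array.

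The receptor gene EcR had its lowest timed levels on the DEX arrays, and none of its differences passed the test over all probe sets. Its level was 3.27 and 3.33 on the DEX arrays at ZT4 and 3.27 and 3.32 on the DEX arrays at ZT16. On vehicle it was 3.88 on the ZT4 array and 3.72 and 3.41 on the ZT16 arrays. The 4 DEX arrays thus lay within 0.06 of one another and below all 3 timed vehicle arrays, while the vehicle arrays spread from 3.41 to 3.88. These DEX levels lay below the median of the tested probe sets, which was 3.45 to 3.47 on the DEX arrays. Whether they are the lowest that this probe set can read, which would limit the spread and the fold, was not tested. The vehicle array without a labelled time read 3.34, next to the DEX arrays. Adjusted for time, the change with DEX was -0.39 ± 0.13 (SE), a level 1.31-fold lower, with a 95% interval of -0.71 to -0.08. The unadjusted p in limma's test was 0.0205 and the adjusted p over 11261 probe sets was 0.994. An exact two-sided permutation test of the 4 DEX against the 3 vehicle arrays, which ignores time, gave p = 0.0286, the smallest that this design allows. Without the single ZT4 vehicle array the change was -0.27 with an unadjusted p of 0.149 in limma. Over all 8 arrays, with treatment as the only term and no adjustment for time, it was -0.29 with 0.0517. The change was -0.58 ± 0.20 at ZT4 and -0.27 ± 0.17 at ZT16, and the difference between these was 0.31 ± 0.26. Vehicle at ZT4 is 1 array, so the ZT4 change and this difference are given without a p-value. The mean level of 8 head fat body markers was 9.91 on the ZT4 vehicle array, where EcR was highest, and 8.46 to 9.25 on the DEX arrays at ZT4. At ZT16 it was 9.38 to 9.78 on vehicle and 9.62 to 10.04 with DEX. The part of these markers in the EcR difference was not tested. The probe set that measures EcR here, 1632796_s_at, has the suffix Affymetrix gives to probe sets that can match transcripts of more than 1 gene.

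The partner gene usp had no difference that passed the test over all probe sets. On the timed vehicle arrays usp read 3.42 at ZT4 and 3.77 and 3.44 at ZT16. On the DEX arrays it read 3.68 and 3.72 at ZT4 and 3.82 and 3.98 at ZT16, and the vehicle array without a time read 3.75. The DEX group reached higher, but the vehicle ZT16 replicate 1 at 3.77 lay inside its range. The change of usp with DEX was 0.29 ± 0.14 (SE), with a 95% interval of -0.03 to 0.61, and limma gave an adjusted p of 0.994. It ran opposite in sign to that of EcR, though neither passed the test over all probe sets and the difference between the genes was not tested. Without vehicle ZT16 replicate 1 the change of usp was 0.37, with an unadjusted p of 0.026 in limma. It was positive in all 15 alternatives on its own scale, with an unadjusted p under 0.05 in 3 of them.

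The members ftz-f1, Hr4 and Eip78C encode nuclear receptors that are themselves induced by the hormone or prepare cells to respond to it. ftz-f1, which makes cells competent for the next hormone pulse, was measured by 1640821_at and 1624520_a_at. With 1640821_at the vehicle levels were 6.25 at ZT4 and 6.66 and 6.72 at ZT16, and the array without a time read 6.63. The DEX levels of ftz-f1 were 6.06 and 6.28 at ZT4 and 6.68 and 5.67 at ZT16. At ZT16 the DEX arrays differed from each other by more than any other pair of replicates for this gene, and 1 of them lay with the vehicle arrays. The change of ftz-f1 with DEX was -0.34 ± 0.29 (SE), with a 95% interval of -1.02 to 0.34, and it was -0.04 without DEX ZT16 replicate 2. At ZT16 alone it was -0.52 ± 0.39, and -0.01 or -1.03 depending on which DEX array was left out. The second probe set ran from 3.12 to 3.83 and gave -0.17 ± 0.19. Across the 8 arrays the levels of both correlated with a Pearson r of 0.56, as a description.

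Hr4, a nuclear receptor that represses early genes and limits ecdysone synthesis in larvae, was close to the filter level. Its brightest probe set read 2.81 at vehicle ZT4, 3.08 and 2.88 at vehicle ZT16, 2.83 and 2.83 at DEX ZT4, and 2.80 and 2.82 at DEX ZT16. The array without a time read 2.81. The highest value of Hr4 was on vehicle ZT16 replicate 1, the array on which dim probe sets read higher, and the remaining 7 arrays lay between 2.80 and 2.88. The change of Hr4 with DEX was -0.09 ± 0.08 (SE) and became -0.02 without that array. The other 2 probe sets of Hr4 were below the filter, from 2.71 to 2.90 and from 2.33 to 2.40, both highest on the same array. Eip78C, an early-late gene related to Eip75B, was below the filter in both tables. Its probe set lay between 2.35 and 2.43 on the 8 arrays and between 2.58 and 2.71 on the 4 arrays. With levels this low no change of Eip78C could be measured, and its expression in the head is not shown to be absent.

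The zinc finger gene br, whose protein isoforms drive the switch from larva to pupa, showed the difference with the smallest p among the members, and it was between times, not treatments. Its brightest probe set, 1626996_s_at, read 3.70 on the vehicle array and 3.85 and 3.78 on the DEX arrays at ZT4. At ZT16 it read 4.64 and 4.48 on vehicle and 4.58 and 4.13 on DEX. All 4 ZT16 arrays lay above all 3 ZT4 arrays, and the array without a time, at 3.92, lay between them. Adjusted for treatment, the ZT16 level of br was higher by 0.67 ± 0.17 (SE), 1.59-fold, with a 95% interval of 0.26 to 1.08. The unadjusted p was 0.00604 in limma and the adjusted p 0.99, so br did not pass over all probe sets. The exact two-sided permutation p for 4 against 3 arrays was 0.0571. The difference was 0.86 ± 0.28 on vehicle and 0.54 ± 0.23 with DEX, and leaving out each array in turn gave 0.54 to 0.82 for the additive fit. The lowest of these was without the ZT4 vehicle array, with an unadjusted p of 0.0604 in limma.

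**Figure D2:**
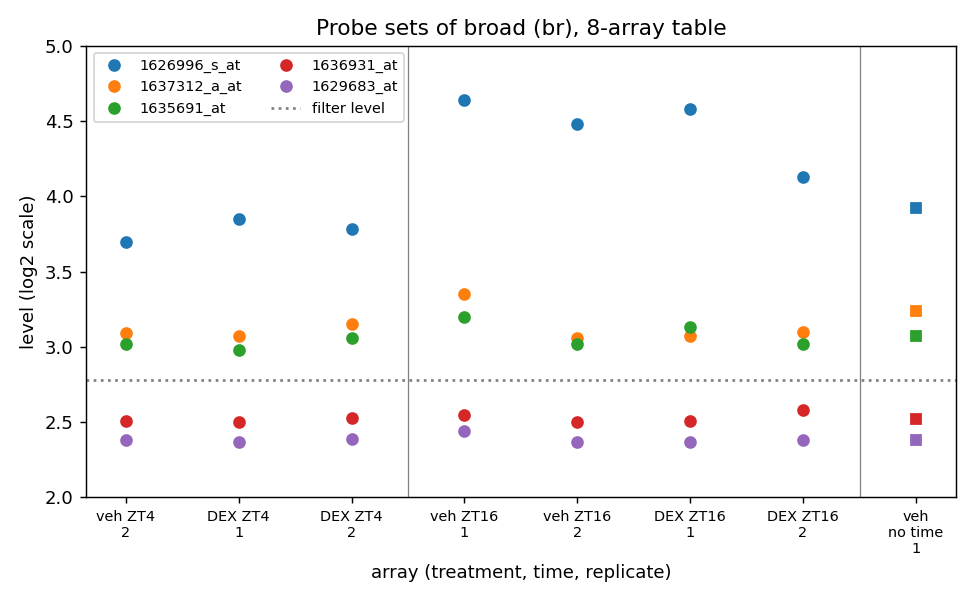
Level (log2 scale, vertical axis) of the 5 br probe sets on each array of the 8-array table (horizontal axis); circles are arrays with a labelled time, squares the vehicle array without one, the dotted line the filter level. The brightest probe set lies at 3.70 to 3.85 at ZT4 and 4.13 to 4.64 at ZT16, while the other 4 differ little between the times.

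The other probe sets of br did not show this difference. 1637312_a_at, of the class that matches several transcripts of 1 gene, read 3.07 to 3.15 at ZT4 and 3.06 to 3.35 at ZT16, a change of 0.03 ± 0.10 (SE) with a 95% interval of -0.21 to 0.27. 1635691_at read 2.98 to 3.06 and 3.02 to 3.20, a change of 0.07 ± 0.08. Both lay below the median of the tested probe sets, 3.45 to 3.51 over the 8 arrays, and were highest on vehicle ZT16 replicate 1. Whether their levels are the lowest that they can read, which would hide a change, was not tested. The remaining 2 were below the filter, from 2.50 to 2.58 and from 2.37 to 2.44 over the 8 arrays. The brightest set correlated across the 8 arrays with these 2 tested sets at an r of 0.24 and 0.67. Which br transcripts each probe set detects is not given in the sources used here, and 1626996_s_at has the same suffix as the EcR probe set. Markers of photoreceptors moved with time in the same direction as br, with a median change of 0.69 against 0.02 over all probe sets. At an unadjusted p under 0.05 in limma, 5 of 5 tested were higher at ZT16, against 3.57% of all probe sets in either direction. Their mean level was 6.17 on vehicle ZT4, 6.47 to 6.53 on DEX ZT4, 6.63 to 7.27 on vehicle ZT16 and 6.79 to 7.59 on DEX ZT16. For 8 neuron markers these means were 3.92, 3.85 to 3.98, 4.06 to 4.18 and 4.10 to 4.33. At an unadjusted p under 0.05 in limma, 2 of 6 tested neuron markers were higher, against the same 3.57%. The part of these markers in the br difference was not tested.

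Eip93F, which directs the fate of tissues at the change to the adult, was measured by a pair of probe sets that did not vary together (r of -0.01 over 8 arrays). 1624441_at read 4.01 at vehicle ZT4, 4.07 and 4.42 at vehicle ZT16, 3.68 and 4.04 at DEX ZT4, and 4.21 and 3.88 at DEX ZT16. The array without a time read 4.27, and both the DEX and vehicle arrays and the ZT4 and ZT16 arrays overlapped for Eip93F. Its change was -0.18 ± 0.18 (SE) with DEX and 0.20 ± 0.18 for ZT16 against ZT4, with 95% intervals of -0.60 to 0.24 and -0.22 to 0.62. 1635485_at read 3.66 on vehicle ZT16 replicate 1 and 3.26 to 3.35 on the other 7 arrays, so that its highest value was on the array that stood apart.

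Counted over the family, no gene passed limma's test over all probe sets with DEX on the timed arrays, where 0% of the 11261 did. At an unadjusted p under 0.05 there was 1 of 6 tested genes, EcR, against 3.39% of all probe sets. EcR was also the 1 gene whose DEX and vehicle arrays did not overlap, DEX lower, as for 2.52% of all. The change was negative for 5 of the 6 genes and for 54.3% of all probe sets, with a median of -0.14 against -0.01. For time, 1 of 6 genes had an unadjusted p under 0.05, br, against 3.57% of all, and 0 passed after adjustment, again against 0%. The groups of br did not overlap, ZT16 higher, as for 2.44% of all, and 5 of 6 changes were positive against 54.7%, with a median of 0.19 against 0.02. With 6 genes these shares rest on single genes. Within ZT4 the DEX change had an unadjusted p under 0.05 for 1 of 6 genes, EcR, against 4% of all probe sets. At ZT16 it did so for 0 of 6, against 2.8%. The DEX effect differed between the times for 0 of 6 genes at that level in limma, against 2.72%, and for 0 after adjustment, against 0%. For ZT16 against ZT4, 1 of 6 genes, br, had an unadjusted p under 0.05 on vehicle alone, against 3.49% of all, and 0 of 6 with DEX alone, against 3.35%. For the difference of the DEX effect between the times, the 95% interval was narrowest for Hr4, at -0.55 to 0.18. It was widest for ftz-f1, at -1.98 to 1.09.

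**Figure D3:**
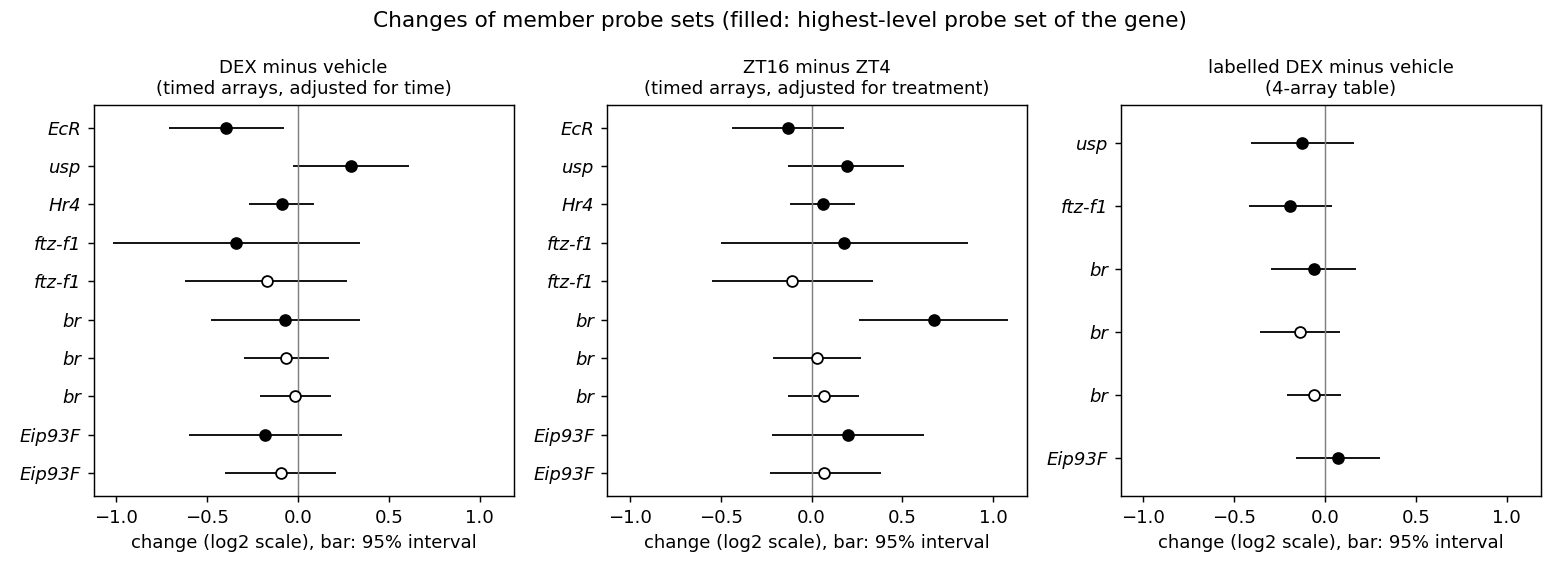
Change on the log2 scale (horizontal axis) with its 95% interval for each tested member probe set in 3 comparisons; filled points mark the probe set with the highest mean level of each gene. The intervals that leave out 0 are those of EcR for DEX and of the brightest br probe set for time, and every other interval plotted covers 0.

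In the 4-array table the tested members differed little between the arrays labelled DEX and the vehicle arrays. With 2 arrays in each group the smallest exact two-sided permutation p is 0.333. usp read 3.69 and 3.83 on vehicle and 3.66 and 3.60 on the arrays labelled DEX, a change of -0.13 ± 0.12 (SE). ftz-f1 read 3.52 and 3.44 on vehicle and 3.26 and 3.32 on the arrays labelled DEX. Both ftz-f1 values labelled DEX lay below both vehicle values, a change of -0.19 ± 0.09 with a 95% interval of -0.42 to 0.04 and, in limma, an adjusted p of 0.778. The brightest of 3 br probe sets read 3.36 and 3.48 against 3.35 and 3.36, a difference of -0.06 ± 0.09. The other 2 br probe sets were each lower on both arrays labelled DEX than on both vehicle arrays, at most 3.06 against at least 3.07 and at most 2.94 against at least 2.95, with differences of -0.14 ± 0.09 and -0.06 ± 0.06. Eip93F read 3.20 and 3.21 against 3.36 and 3.19, a change of 0.07 ± 0.09. Of the 4 genes, 0 passed at an unadjusted p under 0.05 in limma, against 5.42% of all 8379 probe sets. After adjustment 0 passed, against 0.0119%, which is 1 probe set, that of a clock gene read to check the labels. The 2 genes whose groups did not overlap, usp and ftz-f1, were lower on the arrays labelled DEX, as were 31.4% of all probe sets. As labelled, ftz-f1 and br had the sign seen with DEX on the timed arrays, and usp and Eip93F had the opposite sign. With the labels exchanged every sign would turn. Then usp and Eip93F would have the sign of the timed arrays, and ftz-f1 and br would not.

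**Figure D4:**
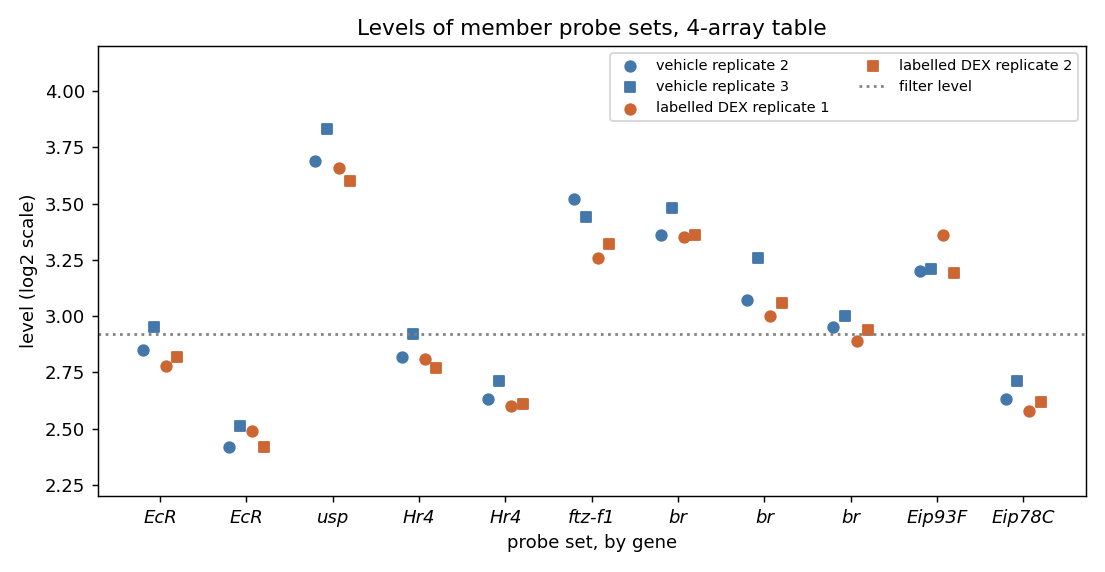
Level (log2 scale, vertical axis) of the 11 member probe sets of the 4-array table on its 2 vehicle arrays and the 2 arrays labelled DEX, by gene; the dotted line is the filter level of 2.92. Vehicle replicate 3 holds the highest value in 9 of the 11, and both EcR and both Hr4 probe sets have means below the filter.

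EcR, Hr4 and Eip78C were below the filter in that table, with all their probe sets between 2.42 and 2.95. The probe set 154377_at of EcR read 2.85 and 2.95 on vehicle and 2.78 and 2.82 on the arrays labelled DEX, and 146672_at read 2.42 and 2.51 against 2.49 and 2.42. Vehicle replicate 3 was the highest array for 9 of the 11 member probe sets, as it was for 86.2% of all probe sets below the filter. The median of those dim probe sets was 2.67 on that array and 2.57 to 2.59 on the other 3. The lower EcR level seen with DEX on the timed arrays could thus not be measured a second time here.

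Other genes of the pathway were counted in the same way, beside 3.39% of all probe sets at an unadjusted p under 0.05 with DEX, 3.57% with time and 5.42% in the 4-array table. At those shares a list of 20 genes would hold about 1, so the counts below are read as values of single genes. Among 20 tested genes of the list of other ecdysone response genes, 1 was higher and 0 lower with DEX on the timed arrays at an unadjusted p under 0.05. That gene was vrille (vri), which is also a direct clock target, at 1.61 ± 0.30 (SE). Next in p came the early gene ImpE1 at -0.16 ± 0.08 and the repressor gene Blimp-1, whose product times ftz-f1 in pupae, at -0.40 ± 0.22. Of the 20 tested in the 4-array table, 1 was higher on the arrays labelled DEX, Blimp-1, which read 0.84 ± 0.21 higher. The sign is opposite to that on the timed arrays, but it rests on labels that tim goes against, and with the labels exchanged it would be -0.84. Next were the hormone-responsive repressor gene Kr-h1 at -0.37 ± 0.17 and the caspase gene Dronc at 0.56 ± 0.30. For ZT16 against ZT4, 1 of 20 was lower, Eip71CD, now called MsrA, a methionine sulfoxide reductase gene, at -0.66 ± 0.23. The larval serum protein gene Lsp2 had 1.67 ± 0.80 and vri -0.54 ± 0.30. None of these passed limma's adjustment over all probe sets.

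For making, moving and breaking down ecdysteroids, 0 of 11 tested genes had an unadjusted p under 0.05 in either comparison of the timed arrays in limma, and 0 of 9 in the 4-array table. None passed after adjustment. The cholesterol transport gene Npc1a, needed for steroid synthesis in larvae, was closest for time at 0.60 ± 0.25 (SE). The hormone-inactivating enzyme gene Cyp18a1 had 0.64 ± 0.39, and Start1, a sterol carrier gene, -0.15 ± 0.17. With DEX the closest were the synthesis gene spo at -0.13 ± 0.09, Npc2a at -0.21 ± 0.19 and Start1 at -0.14 ± 0.17. On the 4 arrays without times they were spo at -0.18 ± 0.10, Fdx1 at 0.23 ± 0.13 and GstE14, also known as nobo, at 0.12 ± 0.09. Among coregulators 0 of 15 had an unadjusted p under 0.05 with DEX or with time, and 0 of 10 in the 4-array table. The chaperone gene Hsc70-4 came closest with DEX at 0.35 ± 0.17, then CycD at -0.20 ± 0.11 and MED1 at 0.15 ± 0.10. For time these were the nuclear pore gene Nup358 at -0.35 ± 0.19, MED1 at 0.16 ± 0.10 and bon at -0.20 ± 0.23. Without a labelled time, in the smaller table, they were MED1 at -0.14 ± 0.09, the demethylase gene Utx at -0.12 ± 0.08 and the corepressor gene Smr at -0.23 ± 0.16.

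Among 11 other nuclear receptor genes tested on the timed arrays, 1 was lower with DEX at an unadjusted p under 0.05, the gap gene knirps (kni), at -0.50 ± 0.18 (SE). Its relatives eg and knrl had -0.20 ± 0.09 and -0.38 ± 0.18. In the 4-array table kni was the 1 of 10 that was higher on the arrays labelled DEX, at 0.43 ± 0.09, or -0.43 with the labels exchanged, followed by ERR at -0.22 ± 0.10 and the xenobiotic receptor gene Hr96 at -0.15 ± 0.11. For time 0 of 11 did so, with knrl at 0.39 ± 0.18, eg at 0.08 ± 0.09 and ERR at 0.07 ± 0.08. Juvenile hormone is the hormone that opposes ecdysone at metamorphosis. Of its pathway, 0 of 6 genes on the timed arrays and 0 of 5 in the 4-array table had an unadjusted p under 0.05. The members with the smallest p were Kr-h1 at 0.61 ± 0.35, the esterase gene Jhe at 0.61 ± 0.36 and the receptor gene Met at -0.12 ± 0.08 with DEX. For time they were Jheh2 at -0.56 ± 0.39, Jhedup at 0.10 ± 0.08 and Fpps at -0.14 ± 0.12, and in the 4-array table Kr-h1 at -0.37 ± 0.17, Jhedup at -0.16 ± 0.10 and Jheh2 at 0.50 ± 0.32. In limma's adjusted test 0 genes of these lists passed. The list medians lay between -0.07 and 0.05 with DEX, against -0.01 over all probe sets, and between -0.04 and 0.05 with time, against 0.02. Those of the 4-array table lay between -0.16 and -0.01, against -0.05.

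The members did not share 1 pattern over the 8 arrays. Among the brightest probe sets of the 6 tested genes, EcR and usp had an r of -0.51, EcR and br -0.05, Eip93F and ftz-f1 0.79, and Hr4 and br 0.59. These correlations are descriptions over 8 arrays that share 1 normalization, and the one of Hr4 leans on vehicle ZT16 replicate 1. Of the 7970 genes compared, those with the level most like EcR were CG13907 (r of 0.982) and the cell polarity gene scrib (0.979). The levels most like usp were those of the neuropeptide gene sNPF (0.889) and dpr20 (0.888), and most like Eip93F those of the G protein gene Galphai (0.955) and CG10874 (0.949). For br they were CG1824 (0.969) and the potassium channel gene sei (0.951). For ftz-f1 they were CG10939 (0.986) and the immune transcription factor gene Rel (0.975), and for Hr4 they were Hrb98DE (0.996) and CG31689 (0.995). Those r of Hr4 also lean on vehicle ZT16 replicate 1, where Hr4 read 3.08 against 2.80 to 2.88 on the other arrays. Each r here is the highest picked from 7970 genes over 8 arrays, which by itself makes it high.

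Marker lists of tissues that a head sample can hold were read in the same way. Neuron, glia, photoreceptor, head fat body and muscle markers were mostly above the filter in the 8-array table, at 6 of 8, 6 of 6, 5 of 5, 7 of 8 and 4 of 4 genes. Of ovary markers 1 of 3 was above it, osk at 2.84, and of haemocyte markers 4 of 6. With DEX the list medians were 0.04, 0.13, 0.26, -0.08 and 0.08, and for ovary and haemocyte markers -0.02 and 0.07. With time they were 0.20, 0.23, 0.69, 0.31 and 0.10 in the same order, and 0.01 for haemocyte markers. No marker had an unadjusted p under 0.05 with DEX over the timed arrays together in limma, and 0 did after adjustment. Within ZT4, 6 of 7 head fat body markers had a negative change with DEX, with a median of -0.85 against 0.01 over all probe sets. Among them Lsp2 had -2.95 ± 0.92 (SE). Within ZT16, 7 of 7 had a positive change, with a median of 0.28 against -0.03. The difference between the times had a median of 1.19 over these markers, against -0.03 over all probe sets. Vehicle at ZT4 is 1 array, so the ZT4 changes and this difference are given as sizes only. For each of neurons, glia, muscle and haemocytes, 1 marker of the 4-array table was lower on the arrays labelled DEX at an unadjusted p under 0.05, and 0 were higher. The part of these tissues in the member levels was not tested.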

How the data were processed

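RNA from fly heads was measured on 12 Affymetrix arrays of 2 designs. The authors deposited intensity values on a linear scale, made with GCRMA per the submitters' processing notes; its version is not given in the sources used here, and nor is whether both tables were normalized together. The natural logs of the deposited intensities ran from 1.84 to 14.64 and from 0.97 to 13.93 without control probe sets, whereas their log2 reached 21.12, so the natural log was read as the log2 level. With log2 every change would be 1.44 times as large, with the same p-values. Control probe sets (183 and 44) were left out, and 11261 and 8379 probe sets above the 40th percentile of the mean were tested. Gene names came from the platform annotation, updated by gene identifier through a RefSeq gene table. No coordinates or sequences were used. Of the names in the lists, phm, torso and nos could not be matched to 1 gene.

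Tests used limma 3.58.1 in R 4.3.3 (lmFit, and eBayes with a mean-variance trend), with Benjamini-Hochberg adjustment over all tested probe sets of a table and a threshold of 0.05. Treatment and time were additive terms over the 7 timed arrays. Effects within a time came from a fit of group means, with the lone ZT4 vehicle array assumed to vary like the others. The 4-array table was tested by itself. The vehicle array without a time entered only 1 alternative, that over all 8 arrays, which had treatment as its only term. A vehicle array of the 4-array table whose label bears no number is named replicate 3. No arrays were identical. The labels do not say whether replicates were separate groups of flies; p-values therefore measure only array-to-array spread, possibly technical, and the number of arrays limits the precision. A gene is represented by its brightest probe set. Members and lists were chosen with earlier results of these data known. Named were all members and, in each list, up to 3 genes of smallest p in each of the DEX, time and 4-array comparisons. Also named were tim, per and vri as a label check and the 2 genes of most similar level. Simulated data with known changes were used to test the fits. Alternatives were no filter, a filter at the 60th percentile, quantile normalization, median centring, no trend, array weights, log2 of the values, other probe sets, each array left out, all 8 arrays and the replicate number as a block.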

Additional observations from a re-analysis of the deposited data

Results flagged for a closer look

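In 3 of 20 sets of 4 arrays tested (the 4 DEX and the 4 ZT16 arrays, for each of the 10 tested member probe sets) 1 array lay far from the others by Dixon's 95% criterion. Chance alone marks about 1 in 20 independent sets of like arrays. The sets here share arrays and mix times or treatments, so the count cannot be weighed against that rate. For ftz-f1 (1640821_at), DEX ZT16 replicate 2 read 5.67 while the other ZT16 arrays read 6.66 to 6.72. For Eip93F (1635485_at), vehicle ZT16 replicate 1 read 3.66 against 3.27 to 3.32 on the other ZT16 arrays. For br (1637312_a_at) the same array read 3.35 against 3.06 to 3.10.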

How the results depend on the processing

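In all 114 combinations of comparison and alternative, 0 members passed limma's adjusted test, with 0 to 2 members at an unadjusted p under 0.05. The change of EcR with DEX was negative in all 15 alternatives on its own scale, from -0.50 to -0.27, with an unadjusted p under 0.05 in 12 and adjusted p from 0.418 to 1. The time change of br was positive in all 14, from 0.54 to 0.82, with an unadjusted p under 0.05 in 13 and adjusted p from 0.737 to 1. Of 469 single-gene values under an alternative, 11 turned sign, none of them past the threshold in limma, and a change that rounds to 0 was taken to have no direction. With array weights the change of br with DEX was 0.03. With 1624520_a_at the ftz-f1 change was -0.11 for time and 0.23 for DEX at ZT4, and with 1637312_a_at the br change at ZT16 against ZT4 with DEX was -0.02. Over the arrays left out in turn, br ran from -0.20 to 0.07 with DEX and from -0.43 to 0.02 with DEX at ZT16. ftz-f1 ran from -0.03 to 0.48 for time, from -0.19 to 0.04 with DEX at ZT4 and from -0.95 to 0.06 for the difference of DEX effects. Hr4 ran from -0.01 to 0.08 for time and Eip93F from -0.01 to 0.15 in the 4-array table. The cause was not tested. The fits of DEX at ZT4, of its difference between times and of time with vehicle could not be made without the ZT4 vehicle array. With the replicate number as a block EcR had -0.40 with DEX (unadjusted p 0.0361 in limma) and br 0.62 for time (0.00957), and 0 members passed. Same-numbered arrays did not deviate together, with correlations of -0.24, -0.01 and 0.07. Each correlation rests on 1 difference between replicates per group, and vehicle at ZT4 has no such difference. They therefore cannot decide whether the numbers pair the arrays. In the 4-array table no paired analysis was possible because the groups share only 1 replicate number. Array weights raised the number of all probe sets at an unadjusted p under 0.05 with DEX from 382 to 955. Levels near the filter limit what Hr4 and Eip78C, and EcR on the 4 arrays, can show.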
